A study of Mus musculus with 10 samples.

Results

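The heat shock proteins and DnaJ chaperones were taken as every gene of the count files whose symbol begins with Hsp followed by a letter from a to h or a digit, or with Dnaja, Dnajb or Dnajc followed by a digit. The rule found 75 members among 24538 genes, and it used no measured value. RNA was sequenced from 5 libraries of metastasis-associated macrophages (MAMs) and 5 libraries of resident alveolar macrophages (RAMs). MAMs were sorted as CD11B+ CD11C- cells from lung metastases of E0771-LG mouse mammary tumor cells, grown in wild type C57BL6/J females that were injected into the tail vein at 6 to 8 weeks of age, and each MAM sample pooled dissected metastases of 2 to 4 mice. RAMs were sorted as CD11C+ CD11B- cells from normal lungs of wild type mice, and both groups were 8 to 10 weeks old and shared the CD45+, F4/80+, LY6C-, MRC1+ and high forward scatter gates. All tissues were digested with enzymes in the presence of the transcription inhibitors alpha-amanitin and actinomycin D. Cell type, tissue state and pooling differ together between MAMs and RAMs and cannot be told apart.

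Heat shock proteins of the HSP70 and HSP90 families bind unfolded proteins and use ATP to help them fold. DnaJ proteins, also called HSP40 or J proteins, deliver clients to HSP70 and stimulate its ATPase, HSP110 proteins release the nucleotide from HSP70, and small heat shock proteins hold unfolded clients without ATP. Each compartment has its own set: the cytosolic inducible genes are switched on by heat shock factor 1 (HSF1) at heat shock elements, and those of the endoplasmic reticulum (ER) by the ATF6, XBP1 and ATF4 arms of the unfolded protein response. By textbook location 42 members were placed in the cytosol and nucleus, 14 in the ER and 10 in mitochondria. The other 9 act elsewhere, or share only the name, as Hspg2 (the basement membrane proteoglycan perlecan) and Hspb11 (an intraflagellar transport protein) do.

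The libraries held 50746305 to 87523247 counts on genes. Levels of 1 gene are given in CPM (counts per 1000000 of normalised library size), comparisons between genes use FPKM (fragments per kilobase of transcript and 1000000 mapped fragments, the authors' Cufflinks values, which are scaled differently from the CPM), and n = 5 libraries per group throughout. Changes are fitted log2 fold changes, MAMs minus RAMs, with standard errors, from edgeR's quasi-likelihood test on 11571 genes with a mean of at least 1 FPKM in a group, and adjusted p-values are Benjamini-Hochberg values over all of them. Siglecf, the alveolar macrophage lectin, ran from 303.9 to 384.9 CPM in RAMs and from 3.09 to 4.82 in MAMs. MAM libraries 1 and 2 stood apart from the other MAM libraries on the second principal component. In these bulk samples, fewer cells of a type and less RNA per cell cannot be told apart.

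Of the 75 members, 64 passed the filter on low values and were tested, 35 in the cytosol, 14 in the ER, 10 in mitochondria and 5 elsewhere. Among them 24 were higher and 10 lower in MAMs at an adjusted p under 0.05, or 53.1% in either direction, and 30 did not pass. Over all genes tested 56.2% passed, 28.9% higher and 27.3% lower. Requiring a fold over 2 as well left 10 members higher and 7 lower, or 26.6%, beside 30.3% of all genes, 15.3% higher and 15.1% lower. The 5 MAM values lay wholly above the 5 RAM values for 18 members and wholly below for 6, or 37.5% in all, beside 44.9% of all genes, 23.7% above and 21.2% below. The median absolute log2 change was 0.36 for the members and 0.56 for all genes. Upper-quartile scaling, which moved the median change of all genes from -0.02 to -0.18 and the share of higher calls from 51.4% to 40.3%, gave 16 members higher and 16 lower.

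**Figure D1:**
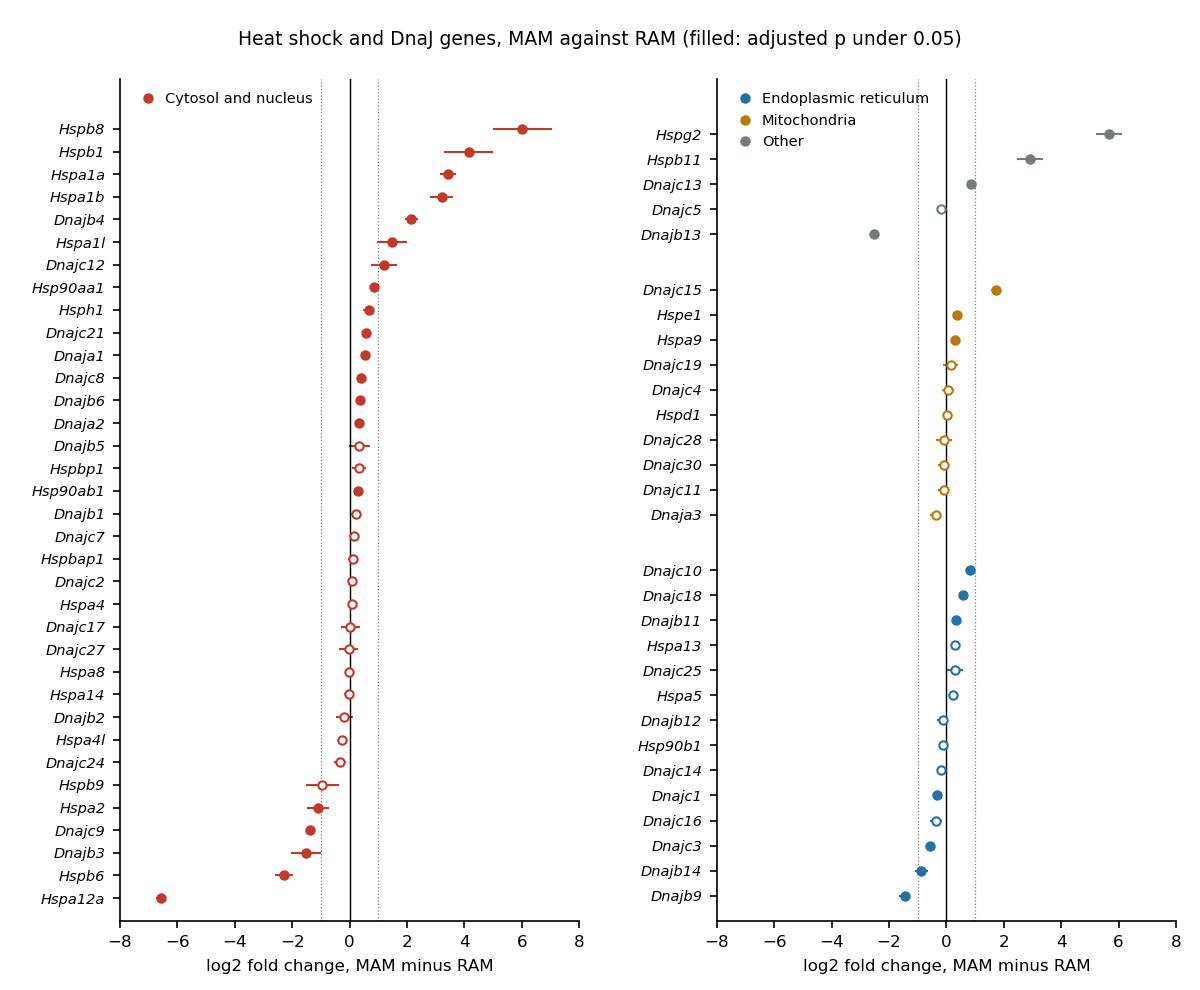
Fitted log2 fold change (x axis, MAMs minus RAMs) of each of the 64 tested members (y axis), cytosol and nucleus on the left, and other locations, mitochondria and ER from top to bottom on the right. Bars are standard errors, filled points have an adjusted p under 0.05, and dotted lines mark a 2-fold change. The cytosolic members spread from -6.58 to 6.02, and the ER members from -1.45 to 0.81.

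In the cytosol and nucleus 15 of 35 tested members were higher in MAMs and 5 lower, or 57.1% in either direction beside 56.2% of all genes. Their median log2 change was 0.21 beside -0.02 for all genes. The ER set held 3 higher and 4 lower of 14, or 50%, with a median of -0.13. In mitochondria 3 of 10 were higher and none lower, by edgeR's test or by DESeq2, also at an unadjusted p under 0.05, and the median was 0.03. Without MAM libraries 1 and 2 the cytosol had 12 higher and 4 lower and the ER 2 higher and 5 lower. Under upper-quartile scaling the cytosol had 10 higher and 6 lower with a median of 0.045, and the ER 2 higher and 7 lower with a median of -0.29, beside -0.18 for all genes. When single libraries were left out, the cytosolic median ran from 0.13, without RAM library 1, to 0.27, the ER median from -0.18 to -0.07, the latter without RAM library 3, and the mitochondrial median from -0.01, without RAM library 1, to 0.06. The difference between compartments was not tested.

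The stress-inducible HSP70 genes Hspa1a and Hspa1b rose about 10-fold in MAMs, the largest folds among the HSP70, HSP90 and HSP110 members that were higher. Hspa1a stood at 44.26, 27.97, 32.2, 40.01 and 27.88 CPM in MAM libraries 1 to 5 and at 2.47, 4.73, 2.77, 1.84 and 4.16 CPM in RAM libraries 1 to 5. For Hspa1b the values were 12.4, 11.8, 10.9, 11.8 and 16 CPM in MAMs and 0.43, 2.27, 1.66, 1.52 and 0.90 CPM in RAMs. Every MAM library was far above every RAM library for both genes. The fitted log2 changes were 3.43 ± 0.27 (adjusted p = 3.7e-08) for Hspa1a and 3.21 ± 0.40 (adjusted p = 5.4e-06) for Hspa1b. The genes are near-identical neighbours on chromosome 17 of GRCm38, Hspa1a at 34969190 to 34972156 and Hspa1b at 34956436 to 34959238, both on the minus strand, and 48.6% and 49.9% of their 100-base transcript windows occur in another gene, so uniquely mapped reads count only part of each. Summed as 1 gene they gave 47.0 CPM in MAMs against 4.55 CPM in RAMs, a log2 change of 3.37 ± 0.23 (adjusted p = 8e-09).

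The promoters of both copies are shown because the genes moved together. RefSeq promoters on GRCm38.p6, from 250 bases before to 50 after the start, were found for 61 members, and the windows below lie on the minus strand of chromosome 17 at chr17:34972213-34972300 and chr17:34959295-34959382. Capitals mark a pair of heat shock units, GAANNTTC, at positions -104 to -97 from the start. The motif is its own reverse complement, so 1 search covers both strands, and 7.86% of 32851 promoters, belonging to 9.04% of 27025 genes, hold it. The printed windows are alike base for base.
Hspa1a: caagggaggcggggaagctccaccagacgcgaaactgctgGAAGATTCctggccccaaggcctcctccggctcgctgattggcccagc
Hspa1b: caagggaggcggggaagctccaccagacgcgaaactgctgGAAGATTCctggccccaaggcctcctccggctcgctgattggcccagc

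The pair of units was present in a promoter of 14 of the 61 members, and a longer form with NNGAA directly after it, or its reverse complement, was present in those of Dnajb6, Hspd1, Hspe1 and Hsph1, beside 0.662% of all genes with a promoter. Every longer match contains the shorter one. Of the members with the pair, 11 were tested, and 8 were higher in MAMs, 1 lower and 2 not past the threshold. Of the 42 tested members with a promoter lacking it, 11 were higher, 9 lower and 22 not past the threshold. Over all genes tested 28.9% were higher and 27.3% lower, and calls among other genes holding the pair were not counted. The members are not independent, since Hspa1a and Hspa1b have like promoters and share transcript sequence, and Hspd1 and Hspe1 hold the same sites. These counts are a description, and a match does not show binding. In the Hspb1 promoter, on the plus strand at chr5:135887782-135887869, the capitals lie at -97 to -90, and a second match, at -117 to -110, is left in lower case.
Hspb1: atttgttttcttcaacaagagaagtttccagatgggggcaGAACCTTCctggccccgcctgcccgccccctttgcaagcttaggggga

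The constitutive HSP70 genes Hspa8 and Hspa14 did not pass. Hspa8, which encodes the constitutive HSC70, ran at 334.2, 239.2, 254.5, 291.8 and 273.7 CPM in MAMs and at 233, 354.7, 333.5, 234 and 273 CPM in RAMs. The groups overlapped fully, and its log2 change was -0.04 ± 0.13 (adjusted p = 0.83). Its RNA was the more abundant per length, at 101.0 FPKM in MAMs against 16.6 for Hspa1a and 6.02 for Hspa1b, although 62.8% of its transcript windows occur in another gene. Hspa14, the ribosome-associated HSP70, had a log2 change of -0.04 ± 0.16. Hspa1l and Hspa2, HSP70 genes best known from testis, changed in opposite directions at low levels. Hspa1l stood at 7.46, 1.69, 2.08, 7.49 and 7.07 CPM in MAMs against 0.98 to 3.38 in RAMs (log2 change 1.48 ± 0.53, adjusted p = 0.027), and it lost its call in 7 alternatives, among them those without MAM library 1, 4 or 5 or RAM library 1 or 5. Hspa2 was 1.81 to 6.37 CPM in MAMs against 5.76 to 11.7 in RAMs (log2 change -1.11 ± 0.37, adjusted p = 0.020), and its call was lost without RAM library 2.

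Hspa12a, a distant HSP70 relative, was the member that fell most. RAM libraries held 197, 247.9, 271, 195.7 and 316.7 CPM, and MAM libraries 3.17, 2.60, 2.26, 2.17 and 2.63 CPM, a log2 change of -6.58 ± 0.18 (adjusted p = 1.7e-13). All RAM values were far above all MAM values, and at 40.4 FPKM in RAMs only Hspa8 was more abundant among the cytosolic HSP70 members. On plain library totals its MAM level was 0.90% of its RAM level. Among the 65 genes above 1000 CPM in RAMs the lowest such share was 0.99%, so whether the MAM counts came from MAMs was not tested. Eno4, which overlaps 1.81% of its exonic bases, also fell, from between 29.3 and 38.0 CPM in RAMs to between 3.57 and 8.32 CPM in MAMs.

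Both cytosolic HSP90 genes and 1 of the 3 HSP110 genes were higher in MAMs, by less than 2-fold. Hsp90aa1, the inducible HSP90 alpha, stood at 183.4, 179.5, 167.8, 129.7 and 153.6 CPM in MAMs and at 71.8, 113.6, 106.3, 78.3 and 79.2 CPM in RAMs, without overlap (log2 change 0.86 ± 0.14, adjusted p = 7e-05). Of its transcript windows 47.5% occur in pseudogenes. Hsp90ab1, the constitutive HSP90 beta and the most abundant cytosolic member, ran at 1660, 1625, 1536, 1536 and 1532 CPM in MAMs and at 1203, 1407, 1296, 1295 and 1193 CPM in RAMs, also without overlap (0.30 ± 0.06, adjusted p = 0.00073), but its call was lost under upper-quartile scaling at 0.14. Hsph1, the inducible HSP110, was 222, 198, 137, 156 and 169 CPM in MAMs and 75.3, 166, 136, 87.3 and 92.3 CPM in RAMs (0.67 ± 0.20, adjusted p = 0.0093). RAM libraries 2 and 3 held the highest RAM values of Hsph1, and of these only RAM library 2 lay inside the MAM range. The Hsph1 call was lost without MAM libraries 1 and 2, at 0.47. The constitutive relatives Hspa4 (0.09 ± 0.07, adjusted p = 0.26) and Hspa4l (-0.25 ± 0.11, adjusted p = 0.062) did not pass.

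RAM libraries 2 and 3 also held the highest RAM values of Hspa8, Hsp90aa1, Hspa5 and Hsp90b1. They were the top pair of the 5 RAM libraries for 7 of the 16 tested HSP70, HSP90 and HSP110 members, and for 12.1% of all genes. In MAMs, libraries 1 and 2 were the top pair for 8 of the 14 ER members, and for 15.3% of all genes. The source of this spread was not tested.

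**Figure D2:**
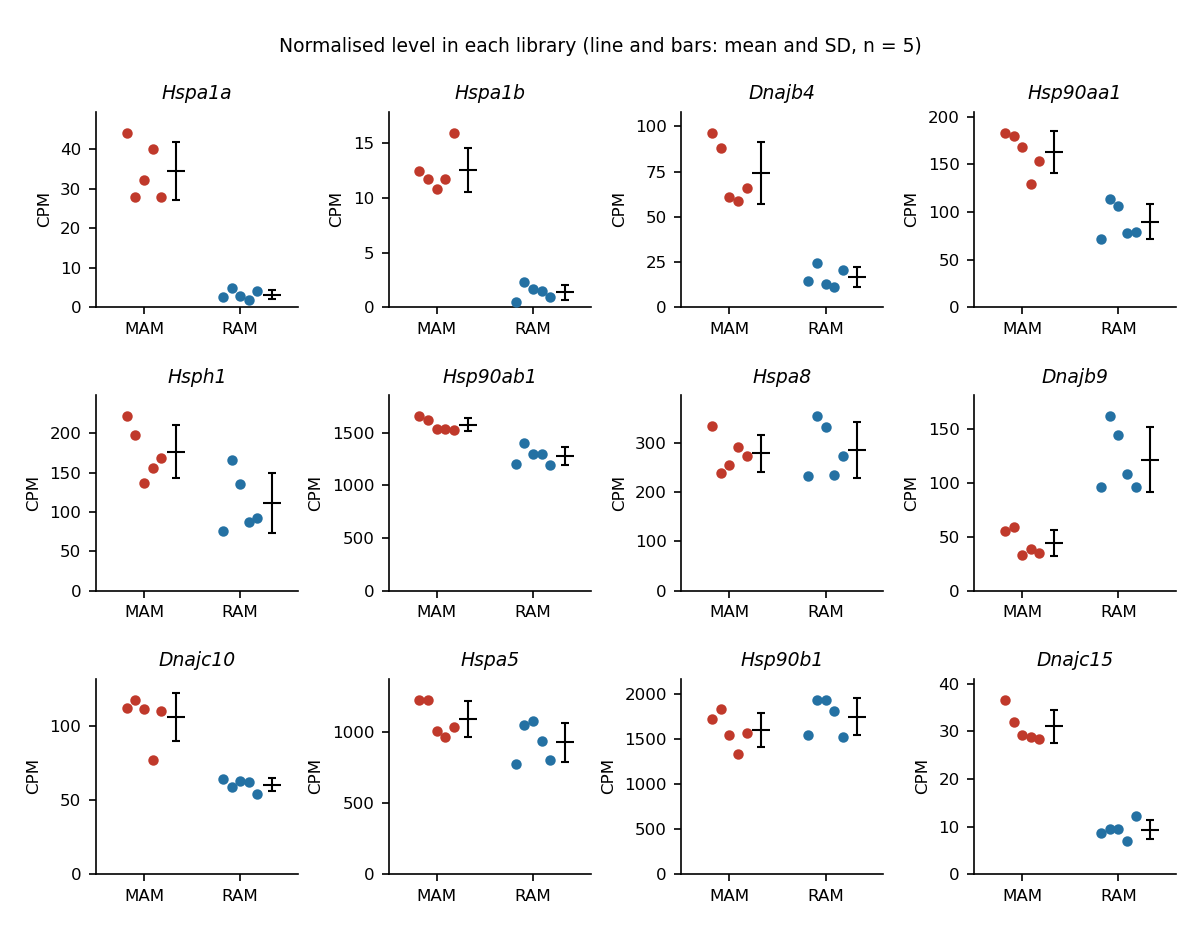
Normalised level (y axis, CPM from 0) of 12 members in each MAM (red) and RAM (blue) library, points from left to right being libraries 1 to 5, with the mean and SD of 5 libraries as a line and bars beside them. Hspa1a, Hspa1b, Dnajb4, Hsp90aa1, Hsp90ab1, Dnajc10 and Dnajc15 lie higher in all MAM libraries, Dnajb9 lies lower, and Hsph1, Hspa8, Hspa5 and Hsp90b1 overlap.

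Among the J proteins of the cytosol and nucleus, 7 of 17 tested were higher and 2 lower, beside 28.9% and 27.3% of all genes. Dnajb4, a class B partner of HSP70, rose 4.45-fold, from 14.5, 24.5, 12.6, 11.1 and 20.7 CPM in RAMs to 96.6, 88.1, 61.2, 59.0 and 66.1 CPM in MAMs (log2 change 2.15 ± 0.22, adjusted p = 8.1e-07). No library of one group reached the range of the other. Dnajb1, the inducible HSP40 that usually accompanies Hspa1a in the heat shock response, was 50.7 to 79.2 CPM in MAMs against 41.7 to 66.8 in RAMs, with a log2 change of 0.21 ± 0.15 (adjusted p = 0.25). Smaller changes that passed were those of the class A partners Dnaja1 (0.54 ± 0.14) and Dnaja2 (0.35 ± 0.10), of Dnajb6, which holds back protein aggregation (0.38 ± 0.12), of Dnajc21, a ribosome biogenesis factor (0.57 ± 0.11), and of Dnajc8, a splicing factor (0.38 ± 0.10). All but Dnaja2 were higher in every MAM library than in any RAM library, and Dnajb6 was called neither under upper-quartile scaling, at 0.21, nor without RAM library 1. Dnajc12, a partner of aromatic amino acid hydroxylases, was low (2.46 to 9.91 CPM in MAMs, 1.38 to 3.47 in RAMs, a 2.30-fold change, adjusted p = 0.037) and lost its call in 8 alternatives, among them those without MAM library 2 or 3 or RAM library 1, 3 or 4.

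Dnajc9, a nuclear histone co-chaperone, fell to 18.3, 20.7, 15.7, 16.01 and 19.8 CPM in MAMs from 55.0, 44.2, 50.4, 43.7 and 42.3 CPM in RAMs (-1.38 ± 0.13, adjusted p = 3.6e-07). All 19 proliferation genes of a fixed list were lower in MAMs as well, beside 27.3% of all genes. The 19 genes summed to 384.5 to 482.1 CPM in MAMs against 1395 to 1753 in RAMs, and their part in the Dnajc9 difference was not tested. Dnajb3, an intronless class B gene, was low at 0.63 to 1.68 CPM in MAMs against 1.35 to 4.24 in RAMs (-1.52 ± 0.52, adjusted p = 0.022). Its call was lost in 5 alternatives, those without RAM library 4 or 5 included. Dnajb2, Dnajb5, Dnajc2, Dnajc7, Dnajc17, Dnajc24 and Dnajc27 did not pass, with log2 changes between -0.33 and 0.34.

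Small heat shock proteins gave the highest folds of the cytosolic members, on few reads. Hspb8, which works with BAG3 in clearing misfolded proteins, had 25, 340, 236, 96 and 400 reads in MAM libraries and 0, 3, 2, 0 and 10 in RAM libraries (6.02 ± 1.02, adjusted p = 0.00013). The MAM values, 0.51 to 6.37 CPM, lay above all RAM values but spread more than 10-fold among themselves. Hspb1 (HSP27) had 146, 268, 60, 99 and 151 reads in MAMs and 13, 4, 20, 2 and 0 in RAMs (4.15 ± 0.86, adjusted p = 0.00076), and 42.7% of its transcript windows occur in a pseudogene. Hspb7 was left untested in the main fit at a mean of 0.71 FPKM in MAMs, with 116, 46, 33, 71 and 211 reads there and 1 read over all RAM libraries. Without the FPKM filter edgeR called Hspb7 higher in MAMs (log2 change 8.17, adjusted p = 2.6e-05), a fold that rests on that 1 RAM read. Hspb6 (HSP20) went the other way, from 20.4, 18.7, 17.6, 25.2 and 9.19 CPM in RAMs to 2.44, 2.31, 4.79, 4.76 and 4.47 CPM in MAMs (-2.28 ± 0.31, adjusted p = 1.6e-05). Proser3, which with Lin37 overlaps 8.79% of the exonic bases of Hspb6, also fell (-2.11 ± 0.44), and reads of the 2 genes may not be separable. Hspb9 did not pass (-0.95 ± 0.57).

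Small heat shock proteins and perlecan are known from stromal and endothelial cells, so markers of those cells were set beside them. Of 12 such markers 6 were tested and 5 were higher in MAMs, beside 28.9% of all genes. The summed level of all 12 markers was 47.8 to 103.2 CPM in MAMs against 8.90 to 16.7 CPM in RAMs. The higher markers were Kdr, at a log2 change of 4.93, Col1a1 (4.74), Pdgfra (4.49), Pecam1 (2.86) and Cdh5 (1.48). Acta2 did not pass (0.26). The endothelial receptor Kdr was 12.1 to 54.3 CPM in MAMs, and Col1a1 spread there from 0.21 to 13.07 CPM. Of the tested markers only Kdr and Pdgfra were without overlap between the groups, beside 44.9% of all genes in either direction. The fibroblast marker Lum and the endothelial marker Cldn5, both untested, had no reads in any MAM library. In RAMs they reached at most 0.0626 and 0.81 CPM. The other untested markers, Col1a2, Col3a1, Dcn and Pdgfrb, had reads in every MAM library. With the MAM mean first, Col3a1 averaged 5.23 and 0.26 CPM and Col1a2 2.62 and 0.52 CPM. Dcn averaged 1.53 and 1.05 CPM and Pdgfrb 1.00 and 0.26 CPM. For each of them the MAM and RAM values overlapped. Hspg2 stood at 11.2, 9.62, 26.5, 13.4 and 17.4 CPM in MAMs and 0.22, 0.24, 0.64, 0.25 and 0.17 CPM in RAMs (5.68 ± 0.45, adjusted p = 4.1e-08), without overlap. Serpinh1, the collagen chaperone HSP47, was 4.35 to 15.9 CPM in MAMs against 0.06 to 0.33 in RAMs (6.15 ± 0.59). The part of these cells in the differences of Hspb1, Hspb7, Hspb8, Hspg2 and Serpinh1 was not tested.

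Of the 14 ER members 3 rose and 4 fell, beside 28.9% higher and 27.3% lower of all genes. The largest change of an ER member was a fall. Hspa5, the ER HSP70 known as BiP, stood at 1230, 1226, 1008, 966.9 and 1040 CPM in MAMs and at 775.8, 1051, 1079, 937.1 and 801.2 CPM in RAMs. Its log2 change was 0.24 ± 0.10 with an adjusted p of 0.068, and it passed by DESeq2 and without MAM library 4 or RAM library 2 or 3, at 0.24 to 0.29. Hsp90b1, the ER HSP90 known as GRP94, was 1718, 1829, 1543, 1327 and 1559 CPM in MAMs and 1544, 1927, 1933, 1804 and 1519 CPM in RAMs. The groups overlapped (-0.13 ± 0.10, adjusted p = 0.26), but Hsp90b1 was called lower under upper-quartile scaling, at -0.30, and without MAM libraries 1 and 2, at -0.24. Hspa13, a microsomal HSP70-like ATPase, was 34.8 to 48.8 CPM in MAMs against 23.1 to 40.7 in RAMs (0.31 ± 0.17, adjusted p = 0.13), and it was called without RAM library 4, at 0.41.

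The lumenal partners of BiP moved in both directions. Dnajb9 (ERdj4), which helps BiP hold the sensor IRE1 inactive and is itself an XBP1 target, fell from 96.7, 162, 145, 108 and 96.4 CPM in RAMs to 55.3, 59.3, 33.4, 39.0 and 35.0 CPM in MAMs (-1.45 ± 0.19, adjusted p = 1.1e-05). Every RAM library exceeded every MAM library. Dnajc3, which binds misfolded proteins in the lumen, was lower in MAMs at 143 to 229 CPM against 220 to 286 (-0.58 ± 0.12, adjusted p = 0.00075), with 1 MAM library inside the RAM range. Dnajc10 (ERdj5), a disulfide reductase with a J domain, rose to 112, 118, 112, 77.3 and 110 CPM from 64.6, 58.7, 63.1, 62.1 and 54.4 CPM (0.81 ± 0.11, adjusted p = 2.1e-05), without overlap. Dnajb11 (ERdj3), the most abundant of these partners at 124.6 FPKM in MAMs, was 199 to 280 CPM against 177 to 218 (0.34 ± 0.10, adjusted p = 0.0090), and its call was lost under upper-quartile scaling, at 0.17, and without MAM libraries 1 and 2, at 0.21.

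Among the ER membrane J proteins Dnajb14 (-0.87 ± 0.21) and Dnajc1 (-0.34 ± 0.10) fell and Dnajc18 (0.57 ± 0.14) rose. Dnajb12, the close relative of Dnajb14, had a log2 change of -0.13 ± 0.19 and did not pass, nor did Dnajc14, Dnajc16 and Dnajc25, which lay between -0.37 and 0.30. Of the 14 ER members only Dnajb9 passed with a fold over 2, or 7.14%, beside 30.3% of all genes.

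Promoters of 3 ER members held the ER stress response element, CCAAT and CCACG with 9 bases between them, beside 0.137% of all genes with a promoter, with both strands searched. They are shown because these 3 members did not move as a set. The windows lie at chr2:34772020-34772048 on the plus strand for Hspa5, chr10:86705598-86705694 on the minus strand for Hsp90b1, which holds a second match nearer its start, and chr14:118937787-118937885 on the plus strand for Dnajc3. Capitals mark the element, at -65 to -47, -212 to -194 and -105 to -87 from the start.
Hspa5: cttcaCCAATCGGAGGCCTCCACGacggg
Hsp90b1: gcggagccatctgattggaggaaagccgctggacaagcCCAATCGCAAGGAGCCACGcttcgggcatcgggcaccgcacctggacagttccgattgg
Dnajc3: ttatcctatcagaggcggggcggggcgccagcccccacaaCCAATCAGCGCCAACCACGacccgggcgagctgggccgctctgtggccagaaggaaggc

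The XBP1 site TGACGTGG, searched on both strands, was present in the promoter of Dnajc25 alone among the members and in those of 0.714% of all genes with one. Dnajc25 did not pass, at 14.6 to 17.8 CPM in MAMs against 7.07 to 22.0 in RAMs.

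In mitochondria the clearest change was that of Dnajc15 (MCJ), an inner membrane J protein known to restrain respiratory complex I. It rose 3.31-fold, from 8.63, 9.55, 9.50, 6.99 and 12.3 CPM in RAMs to 36.7, 32.0, 29.3, 28.8 and 28.5 CPM in MAMs (1.73 ± 0.17, adjusted p = 6.1e-07), and no values overlapped. Hspa9, the mitochondrial HSP70 mortalin, was 148 to 169 CPM in MAMs and 122 to 134 CPM in RAMs (0.31 ± 0.07, adjusted p = 0.0016), without overlap, but was not called under upper-quartile scaling, at 0.15. The chaperonin genes Hspd1 (HSP60) and Hspe1 (HSP10) share a promoter region head to head. Hspd1 was 120 to 140 CPM in MAMs and 110 to 143 CPM in RAMs (0.01 ± 0.09, adjusted p = 0.91). Hspe1 was 20.4 to 29.8 CPM and 16.8 to 23.9 CPM (0.38 ± 0.15, adjusted p = 0.047), and that call was lost in 12 alternatives, the fits without any of 8 single libraries among them. Dnaja3, the J partner of mortalin, did not pass (-0.38 ± 0.19, adjusted p = 0.11) but was called lower under upper-quartile scaling, at -0.54. Dnajc4, Dnajc11, Dnajc19, Dnajc28 and Dnajc30 lay between -0.10 and 0.15 and did not pass.

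**Figure D3:**
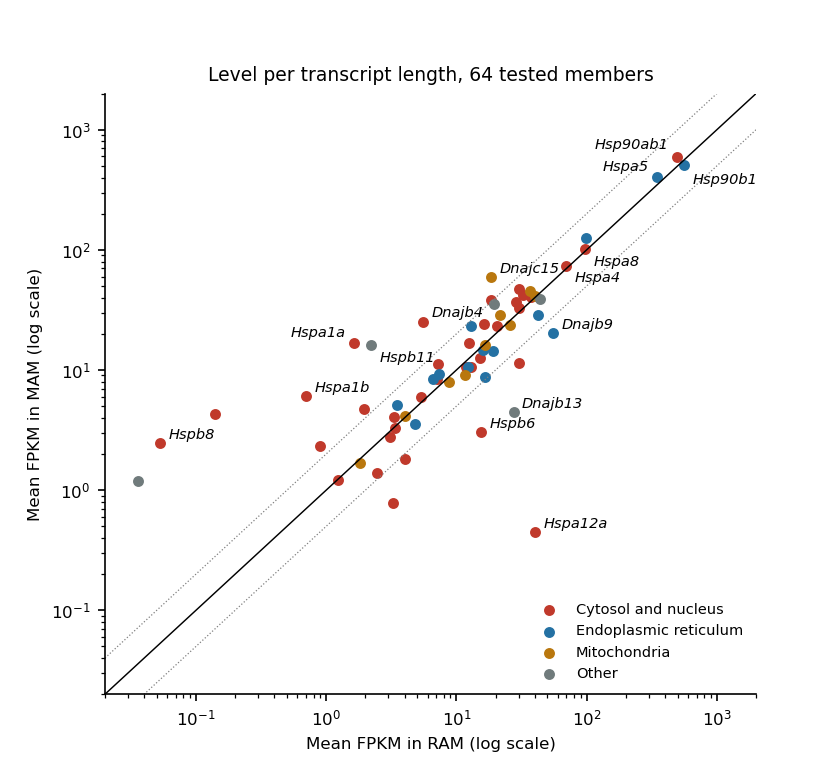
Mean FPKM in MAMs (y axis, log scale) against RAMs (x axis, log scale) of the 64 tested members, colored by location, with the line of equality and dotted lines at 2-fold. The abundant members Hsp90ab1, Hsp90b1 and Hspa5 lie near the line, and the members far from it lie below about 60 FPKM in both groups.

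Summed over members, cytosolic chaperone RNA was 1162 to 1299 FPKM in MAMs and 967.1 to 1195 in RAMs, and 62.4% of it came from Hsp90ab1, Hspa8 and Hspa4. The groups overlapped. The ER sum was 1018 to 1363 FPKM in MAMs and 1048 to 1337 in RAMs, with 85.6% from Hsp90b1, Hspa5 and Dnajb11. For mitochondria the sum was 227.5 to 246.2 FPKM in MAMs and 168.1 to 197.7 in RAMs, without overlap, and Hspa9, Hspd1 and Dnajc15 made up 61.5% of it in MAMs and 51.6% in RAMs, where Dnajc30 and Hspe1 were more abundant than Dnajc15. Dnajc15 alone averaged 59.8 FPKM in MAMs and 18.6 FPKM in RAMs.

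Among members acting elsewhere, Dnajc13 (RME-8), an endosomal J protein, rose to 322, 355, 347, 356 and 315 CPM from 196, 176, 204, 172 and 189 CPM (0.85 ± 0.07, adjusted p = 9.4e-08). Hspb11 was 3.98 to 12.9 CPM in MAMs against 0.35 to 1.73 in RAMs (2.91 ± 0.46, adjusted p = 7.1e-05). Both were higher in every MAM library. Dnajb13, a radial spoke protein of cilia, was 58.6 to 78.3 CPM in RAMs and 8.16 to 14.8 CPM in MAMs (-2.51 ± 0.17, adjusted p = 4.8e-09). It overlaps 11.2% of its exonic bases with the uncoupling protein gene Ucp2, which stood at 2395 to 2625 CPM in RAMs and 1322 to 1676 CPM in MAMs, and their reads may not be separable. Dnajc5, a vesicle J protein, did not pass (-0.17 ± 0.08, adjusted p = 0.087), though it was called lower under upper-quartile scaling, at -0.34, and without RAM library 5.

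The 11 members left untested were Hspa12b, Hspb2, Hspb3, Hspb7, Dnaja4, Dnajb7 and Dnajb8 of the cytosol, and Dnajc5b, Dnajc5g, Dnajc6 and Dnajc22. Hspb2, Hspb3, Dnajb8, Dnajc5b and Dnajc5g had no read in any of the 10 libraries. Hspa12b, best known from endothelium, was 0.83 to 2.10 CPM in MAMs against 0.42 to 7.27 in RAMs.

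Regulators and partners were taken from 5 lists. Beside the counts of each list stand 28.9% higher and 27.3% lower over all genes tested. Of the heat shock factor list 3 genes were tested. Hsf1, the main activator of the cytosolic response, was 48.4 to 67.9 CPM in MAMs against 57.9 to 75.6 in RAMs (-0.24 ± 0.12, adjusted p = 0.11), and was called lower under upper-quartile scaling, at -0.40. Hsf2 (0.63 ± 0.22) and the HSF1-binding protein gene Hsbp1 (0.26 ± 0.08) were higher, but neither was called under upper-quartile scaling, and Hsf2 was not called without MAM library 1 or RAM library 1. The list of cytosolic co-chaperones had 24 tested genes, 8 higher and 7 lower, or 4 higher and 7 lower under upper-quartile scaling. One of the higher genes was Serpinh1, which resides in the ER. Bag3, the HSP70 exchange factor that pairs with HSPB8, rose from between 41.6 and 51.9 CPM in RAMs to between 80.5 and 89.6 CPM in MAMs (0.80 ± 0.09, adjusted p = 2.5e-06). Stip1, which links HSP70 to HSP90, was 0.41 ± 0.13 higher and lost its call under upper-quartile scaling and by limma on both FPKM scales. The steroid receptor immunophilins Fkbp5 (-1.98 ± 0.22) and Fkbp4 (-0.93 ± 0.10) fell.

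The TRiC chaperonin and prefoldin, which fold actin and tubulin, had 8 of 14 genes higher and 1 lower, with a median of 0.33. Over all genes tested 28.9% were higher and 27.3% lower. Under upper-quartile scaling TRiC and prefoldin had only 3 genes higher and 1 lower. The subunit Cct3 was 52.5 to 59.3 CPM in MAMs against 34.3 to 38.3 in RAMs (0.65 ± 0.10). The prefoldin genes Pfdn1 (0.82 ± 0.29) and Vbp1 (0.73 ± 0.21) were higher too, Pfdn1 without a call in 7 alternatives. Of 13 mitochondrial partners 2 were higher, the proteases Htra2 (0.95 ± 0.18) and Afg3l2 (0.41 ± 0.09), and the mitochondrial HSP90 gene Trap1 was lower (-0.45 ± 0.16), a call lost without MAM library 3 or 5 or RAM library 1 or 2.

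Of 36 ER folding and unfolded protein response genes 11 were higher and 5 lower, beside 28.9% and 27.3% of all genes. Their median was 0.08. Ddit3 (CHOP), a transcription factor of the PERK arm, was 17.7 to 29.1 CPM in MAMs against 5.39 to 10.0 in RAMs (1.48 ± 0.21), Ppp1r15a (GADD34) 47.1 to 60.2 and 12.1 to 17.5 (1.79 ± 0.14), and Atf4 209 to 281 and 151 to 191 (0.59 ± 0.09). Trib3, at 0.87 to 9.06 and 0.31 to 0.86 CPM, had a log2 change of 2.87 ± 0.62. Eif2ak3, which encodes PERK itself, fell (-1.40 ± 0.13). Ern1, which encodes the sensor IRE1, rose to 92.1 to 114.2 CPM in MAMs from 43.8 to 64.4 in RAMs (0.99 ± 0.115). Both genes were added after their values were seen. Xbp1 was lower, at 173 to 242 CPM in MAMs against 419 to 508 in RAMs (-1.10 ± 0.09, adjusted p = 8.7e-08), as was Herpud1, an ER degradation factor, at 4.93 to 13.8 and 35.8 to 67.6 CPM (-2.25 ± 0.28). Atf6 rose (0.75 ± 0.12), whereas Hyou1, Calr, Pdia4 and Pdia6, lumenal folding genes, lay between -0.20 and 0.09 and did not pass. Under upper-quartile scaling 9 genes were higher and 12 lower, Hyou1 and Pdia4 among the lower, and Hyou1 was also called lower without MAM library 3 or RAM library 5.

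**Figure D4:**
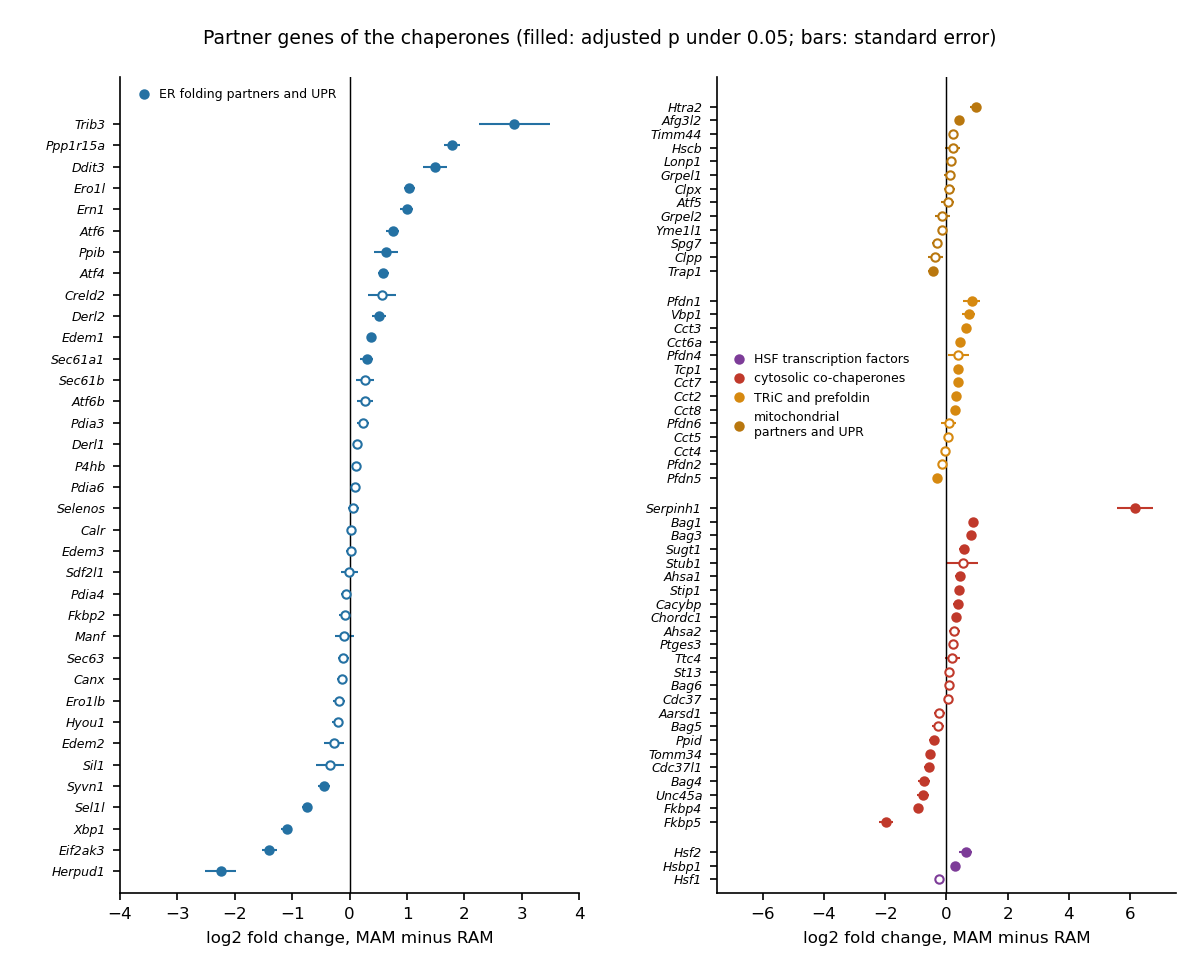
Fitted log2 fold change (x axis, MAMs minus RAMs) with standard errors of tested partner and regulator genes (y axis), ER genes on the left, and mitochondrial, TRiC and prefoldin, cytosolic co-chaperone and heat shock factor genes from top to bottom on the right, with filled points at an adjusted p under 0.05. Trib3, Ppp1r15a and Ddit3 lie at 1.48 to 2.87, and Xbp1, Eif2ak3 and Herpud1 at -2.25 to -1.10.

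Some inducible HSP70 and J protein genes are also known to rise while tissue is dissociated, so 16 immediate early genes of that response were set beside them. In MAMs 8 were higher and 6 lower, beside 28.9% and 27.3% of all genes, with a median of 0.33. Their summed level was 4414 to 4808 CPM in MAMs against 3815 to 4312 in RAMs. Ier3 (3.70 ± 0.14) and Socs3 (4.43 ± 0.30) rose, and Fosb (-2.29 ± 0.23), Egr1 (-0.97 ± 0.14) and Fos (-0.51 ± 0.09) fell. Their part in the differences of Hspa1a, Hspa1b and Dnajb4 was not tested. The 10 epithelial and tumor cell markers summed to 10.7 to 24.7 CPM in MAMs and 589.9 to 702.5 CPM in RAMs. Of the 4 tested, 3 were lower in MAMs, and these made up most of the RAM sum. In RAMs Krt19 was 377.3 to 492 CPM, Cdh1 107.2 to 150.3 and Epcam 49.2 to 100.2. In MAMs they were 3.58 to 10.9, 1.83 to 11.2 and 0.54 to 0.83 CPM. The other markers reached at most 0.56 CPM in RAMs, and the source of the RAM reads was not tested. Krt8 was 0.62 to 3.31 CPM in MAMs and at most 0.21 in RAMs. Krt18 reached 8.84 CPM in MAM library 1 and at most 0.20 CPM in the other MAM libraries.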

How the data were processed

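RNA-seq of sorted macrophages was analysed from 10 libraries, 5 of MAMs and 5 of RAMs. The authors deposited raw counts per gene, made from paired reads of amplified cDNA (Ovation V2) aligned to GRCm38 with Tophat 2.0.13 and counted with HTSeq 0.6.1 on UCSC RefGene models, and FPKM values from Cufflinks 2.2.1. The strand setting is not given in the sources used here. Lines that name no gene, 54.6 to 64.1% of each file's total, were left out. Members and lists were chosen with earlier results of these data known, and compartments and lists were assigned by textbook function. Named genes were members past both thresholds, the 3 of highest FPKM per compartment and a list of core members. Per list they were the 3 largest changes and core regulators. Ier3, Socs3, Fosb, Egr1, Fos, Siglecf, Eif2ak3, Ern1 and the remaining members were added after their values were seen. So were the single epithelial, tumor, stromal and endothelial markers that are named.

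Counts were tested with edgeR 4.0.16 (TMM factors, group as the only term, glmQLFTest) on genes whose mean FPKM reached 1 in either group, with Benjamini-Hochberg adjustment; standard errors are the log2 change over the root of F. DESeq2 1.42.0 and limma 3.58.1 on log2(FPKM + 1) and log2(FPKM + 0.1) were alternatives. So were other scalings and filters, a replicate block and each library left out. The tests were also run on simulated counts with 200 of 11569 genes changed, whereas 56.2% of genes were called in the data. There edgeR recovered 62% of 2-fold and 92% of 4-fold changes with 8 false calls, and DESeq2 72% and 95% with 27. The simulation therefore cannot show how the tests behave when most genes change. The study's methods describe samples in general as single mice or pools of metastases from several, and the labels tie no library to named animals, so p-values measure the spread between these samples. The other marker lists gave 1 higher and 9 lower of 11 tested alveolar macrophage genes, 12 higher of 12 for monocyte-derived macrophages, 3 and 3 of 7 for macrophages in general, 1 and 4 of 6 for lung epithelium, 4 and 1 of 6 for neutrophils, and none of 4 for lymphocytes, by edgeR or at an unadjusted p under 0.05. Over all genes tested 28.9% were higher and 27.3% lower. Exon overlaps and shared 100-base windows were computed on GENCODE M21 (GRCm38). No counting intervals are given, since the replicates carry the error.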

Additional observations from a re-analysis of the deposited data

Results flagged for a closer look

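Among the groups of 5 libraries tested for 38 named members, 76 in all, 4 held a library far from its group by Dixon's ratio, and chance flags about 1 in 20 groups. Dnajb3 in MAMs was 1.68 CPM in library 3 and 0.63 to 0.83 CPM in the others. Dnajc10 in MAMs was 77.3 CPM in library 4 and over 100 CPM, up to 117.9 CPM, in the others. Hspb8 in RAMs was 0.21 CPM in library 5 and 0 to 0.045 CPM in the others. Hspg2 in RAMs was 0.64 CPM in library 3 and 0.17 to 0.25 CPM in the others. All 4 genes kept the direction of their change without that library.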

How the results depend on the processing

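Across 19 alternatives no result changed direction past a threshold. Upper-quartile scaling changed most: cytosolic members higher 10 and lower 6, ER members lower 7, mitochondrial members higher 1 and lower 1 with a median of -0.13, heat shock factors higher 0 and lower 1, co-chaperones higher 4, TRiC and prefoldin higher 3, ER list lower 12 and mitochondrial list lower 3. TRiC and prefoldin genes lower became 0 without the FPKM filter, with filterByExpr and with the replicate block, and heat shock factors higher became 1 without MAM libraries 1 and 2, an alternative chosen after seeing the data. Leaving out each library in turn gave 1 to 2 heat shock factors higher, 0 to 1 TRiC and prefoldin genes lower and 0 to 1 mitochondrial partners lower, and for members 12 to 15 cytosolic higher and 3 to 4 ER higher. Replicate numbers were not taken as pairs in the main test. Deviations from the group means had correlations under 0.1 between libraries of the same number, and 2 of 5 MAM libraries correlated best with their own number. These values cannot show whether samples of the same number were handled together. With the replicate number as a block 21 members were higher and 9 lower. Of 1198 values of single genes under an alternative, 59 lost and 15 gained a call, and the causes were not tested. In RAM libraries Hspb1 had 0 to 20 reads and Hspb8 0 to 10, so counting error limits the size of their folds.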
